A study of Homo sapiens with 38 samples.

Results

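Y RNAs are small noncoding RNAs transcribed by RNA polymerase III. They fold into a stem in which the 5′ and 3′ ends pair, and the Ro60 protein binds that stem. Human cells carry a few named genes, RNY1, RNY3, RNY4 and RNY5, and a large number of dispersed copies that arose mainly by retrotransposition and are annotated under the common symbol Y_RNA. Fragments from the 5′ and 3′ ends of Y RNAs are abundant in extracellular RNA, and a short read from a copy is often identical to the named gene. The entries described here are the unnamed Y_RNA copies whose raw counts summed to at least 200 over the 38 libraries. There were 227 of them among 679 unnamed copies, 733 Y RNA entries and 22549 features in the table.

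The libraries hold small RNA released by DiFi, a human colorectal cancer cell line, and treated with AlkB enzymes, which remove base methylations that stop reverse transcription. Small extracellular vesicles (sEV), exomeres and supermeres, which are nonvesicular particles, were pelleted by ultracentrifugation (UC) from serum-free medium of flat cultures (2D) and from medium of hollow-fibre bioreactors (3D), with 3 libraries in each of these 6 groups. From 3D medium, exomeres and supermeres were also separated by size-exclusion chromatography on a fast protein liquid chromatography system (FPLC, 4 libraries each), and a cushioned density gradient gave fractions 6_7, 9_10 and 12 (4 libraries each). The labels give light vesicle, heavy vesicle and nonvesicular classes for the gradient but tie none of them to a fraction number. All libraries come from 1 cell line with no other treatment. The labels name separate pools of medium but do not tie the library letters to them, so a p-value reflects the spread among these libraries, which may be technical.

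Library totals ran from 81079 to 16991360 counts, apart from 3D UC supermere A, which held 46 counts. That library stayed in the fit and was left out of all means. Means for that group rest on its other 2 libraries, while its fold changes and p-values also use the library with 46 counts. All 8 epithelial miRNAs that were listed as markers of the labelled cell type had counts in each of the 11 groups, with summed levels from 264 CPM (counts scaled to a library total of 1e6) in FPLC supermere to 113155 CPM in gradient 9_10. The 8 listed miRNAs of blood, liver and muscle summed to at most 53.0 CPM as a group mean.

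What the copies share with the named genes is shown first, because reads are assigned by sequence. Each copy was aligned to RNY1, RNY3 and RNY4. The nearest was RNY1 for 127 copies, RNY3 for 66 and RNY4 for 34, and the longest exact match named the same gene for 227 of 227. Median identity was 86.7% for the RNY1-like, 89.8% for the RNY3-like and 85.5% for the RNY4-like copies. Below are RNY1 and RNY4, 5′ to 3′, from GENCODE release 29 on GRCh38. Capitals mark, in each, the 18-base stretch that more copies hold without a mismatch than any other; the like stretch of RNY3 was found in the same way.
RNY1: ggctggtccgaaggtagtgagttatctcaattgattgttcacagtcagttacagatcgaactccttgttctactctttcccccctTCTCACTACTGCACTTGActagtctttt
RNY4: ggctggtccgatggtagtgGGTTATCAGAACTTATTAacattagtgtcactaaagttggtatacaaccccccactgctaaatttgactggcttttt

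This stretch lies near the 3′ end in RNY1 (bases 86 to 103 of 113) and in RNY3. In RNY4 it lies inside the 5′ part (bases 20 to 37 of 96). It was held by 62 copies for RNY1, 58 for RNY3 and 16 for RNY4. The first 18 bases of each named RNA were far rarer, held by 2 copies for RNY1, 7 for RNY3 and 4 for RNY4. Among the 452 unnamed copies under 200 counts, the RNY1 stretch was in 1 and the RNY4 stretch in 0, while the RNY3 stretch was in 19. The stretches were picked as the commonest in the copies at or above 200 counts, so this difference is partly fixed in advance. The copies are grouped below by these stretches: 62 RNY1 3′ window copies, 58 RNY3 3′ window copies, 16 RNY4 inner window copies, 3 RNY4 copies that hold the first 18 bases but not the inner window, and 65, 8 and 15 other copies nearest to RNY1, RNY3 and RNY4. This grouping was made after the counts had been seen. Of the 65 other RNY1-like copies, 38 hold RNY1 bases 12 to 29 exactly, against 6 of the 62 RNY1 3′ window copies.

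**Figure D1:**
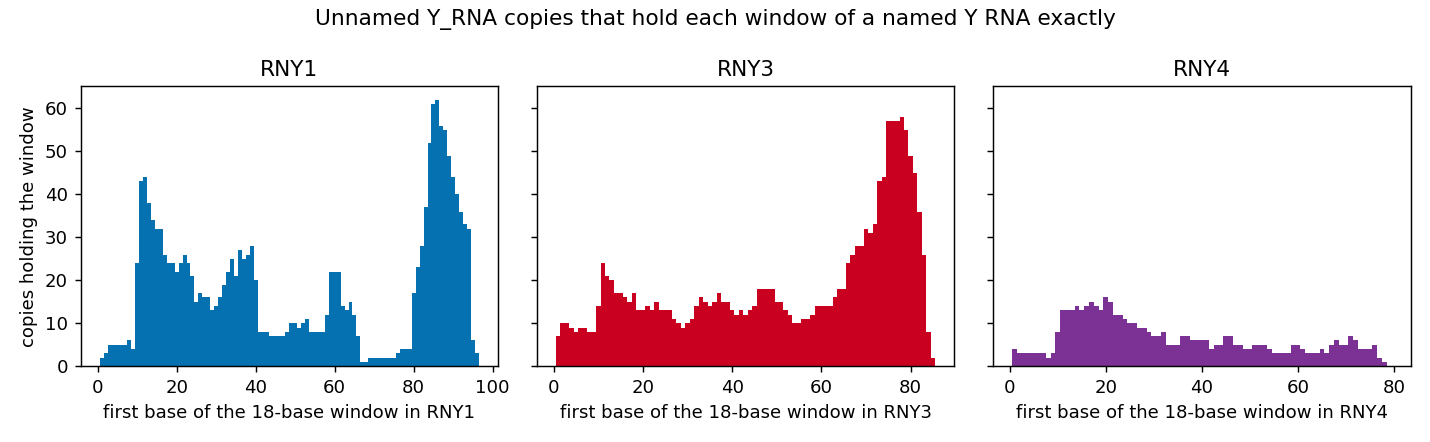
Number of the 227 copies (y axis) that hold each 18-base window of RNY1, RNY3 and RNY4 exactly, by the first base of the window (x axis). RNY1 and RNY3 peak near the 3′ end at 62 and 58 copies, and RNY4 peaks at 16 copies in its 5′ part.

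The next sequences are copies on which the results turn, with capitals for the longest exact match to the nearest named RNA. They show 5′ matches, 3′ matches and a middle match.
ENSG00000201778: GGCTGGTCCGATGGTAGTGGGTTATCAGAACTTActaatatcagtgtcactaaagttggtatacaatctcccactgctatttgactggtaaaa
ENSG00000199200: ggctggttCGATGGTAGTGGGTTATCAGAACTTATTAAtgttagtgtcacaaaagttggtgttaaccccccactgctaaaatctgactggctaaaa
ENSG00000200615: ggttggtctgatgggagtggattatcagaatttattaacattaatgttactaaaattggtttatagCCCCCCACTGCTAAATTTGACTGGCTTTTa
ENSG00000201800: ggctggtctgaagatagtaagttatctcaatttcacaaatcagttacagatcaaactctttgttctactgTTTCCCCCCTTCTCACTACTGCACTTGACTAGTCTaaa
ENSG00000199584: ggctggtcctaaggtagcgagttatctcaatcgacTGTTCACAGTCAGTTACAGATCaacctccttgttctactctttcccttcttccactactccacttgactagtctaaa

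ENSG00000201778 lies at chr3:157153548-157153640 on the plus strand, within CCNL1 but on the opposite strand, and its first 34 bases are those of RNY4. ENSG00000199200 lies at chr10:34201979-34202074 on the minus strand, in an intron of PARD3, and matches RNY4 bases 9 to 38. ENSG00000200615 lies between genes at chr11:33004250-33004345 on the minus strand and matches RNY4 bases 67 to 95. ENSG00000201800 lies at chr3:125516979-125517086 on the plus strand, opposite SNX4, and matches RNY1 bases 76 to 110. ENSG00000199584 lies between genes at chr12:127619336-127619447 on the minus strand and matches RNY1 bases 36 to 57. Of all 227 copies, 78 sit within a gene on the other strand, 73 in an intron on the same strand, 69 between genes and 7 in an exon on the same strand.

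Counts chose these copies, so their totals are a description. The 227 copies held 9664580 counts. One copy, ENSG00000201778, held 69.6% of them and the 10 copies with the highest totals held 79.8%. The median copy had 2416 counts over all libraries. The lowest total inside the threshold was 201 (ENSG00000200829) and the highest outside it was 191.5, and the 452 copies outside held 0.109% of all counts of unnamed copies. Copies nearest to RNY4 held 82.8% of the counts, those nearest to RNY1 15.0% and those nearest to RNY3 2.20%. A total can be reached through 1 group: 141 copies had over 50% of their counts in a single group, and for 128 of these it was 2D UC sEV. The counts of called copies given below describe the chosen copies and are no evidence beyond them.

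Reads were divided among copies. Of the copies' values above 0, 91.0% were not whole numbers (tolerance 1e-06), against 25.3% in all other features. No copy had the same counts as another in every library, yet levels ran in narrow bands. In 2D UC supermere, 13 of the 34 RNY4-like copies had group means between 952 and 992 CPM, and 9 of those 13 hold the RNY4 inner window. In 2D UC sEV, 13 of the 62 RNY1 3′ window copies had means between 474 and 497 CPM. A single copy's level is therefore uncertain, and members of a sequence class are not independent measurements. Whether any of these loci is transcribed was not tested. Levels are not divided by length; the copies are 87 to 134 bases long.

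The clearest case of divided reads is ENSG00000201778. It shares its first 32 bases with RNY4, the functional Y4 gene at chr7:148963315-148963410, and with the pseudogenes RNY4P10 and RNY4P7. Over all libraries it had 6722156 counts, RNY4 had 6824942, RNY4P10 6771607 and RNY4P7 6391930. Its counts relative to RNY4 were 0.997 ± 0.0023 (SD, n = 3) in 2D UC supermere, 1.01 ± 0.0063 (n = 3) in 3D UC exomere and 1.00 ± 0.0012 (n = 4) in FPLC supermere. The ratio was lower in 2D UC sEV, at 0.868 ± 0.011 (n = 3), and lowest in gradient 6_7, at 0.413 ± 0.012 (n = 4). In gradient 9_10 it was 0.568 in the lowest library and 0.981 in the highest. The groups 2D UC sEV and gradient 6_7 do not overlap any other UC or FPLC group in this ratio. In those 2 groups RNY4 thus held counts that the copy did not share, and in most others the entries had nearly equal counts.

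**Figure D2:**
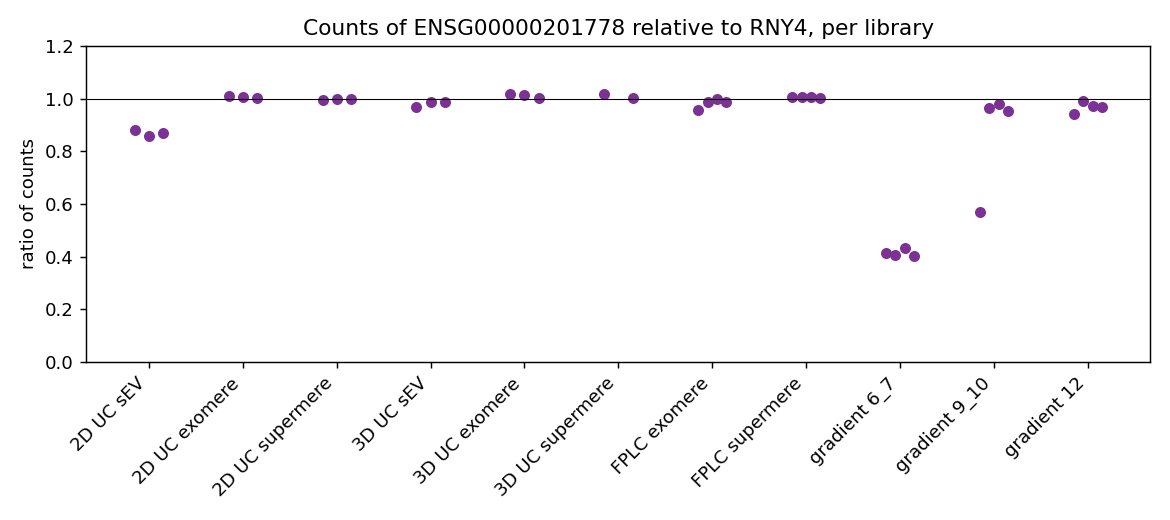
Counts of ENSG00000201778 divided by those of RNY4 (y axis, ratio) in each library (points), by group. Most libraries lie close to 1, the 4 gradient 6_7 libraries lie between 0.403 and 0.430, and the 3 2D UC sEV libraries between 0.857 and 0.879.

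As a share of all counts of a library, the 227 copies were highest in 3D UC exomere, at 14.9% ± 0.695 (SD, n = 3), and in 3D UC supermere, at 9.06% and 13.8% in its 2 usable libraries. The share was 4.25% ± 0.565 in 2D UC sEV, 3.64% ± 1.51 in 3D UC sEV, 1.62% ± 0.824 in 2D UC supermere and 1.45% ± 0.0660 in 2D UC exomere (n = 3 each). It was 3.93% ± 0.411 in FPLC exomere, 3.17% ± 1.46 in FPLC supermere, 2.97% ± 1.34 in gradient 9_10 and 1.61% ± 0.615 in gradient 6_7 (n = 4 each). In gradient 12 it was lowest, at 0.150% ± 0.0386 (n = 4). No 3D UC exomere library overlaps a library of another group, and neither does any gradient 12 library. Among the neighbours in this order, 2D UC sEV, FPLC exomere, 3D UC sEV, FPLC supermere and gradient 9_10 overlap. So do 2D UC supermere, gradient 6_7 and 2D UC exomere. These sets also overlap each other: 3D UC sEV A (1.91%), gradient 9_10 A (1.23%) and FPLC supermere A (1.22%) lie below 2D UC supermere A (2.16%). Within Y RNA reads alone the order differs: the copies took 51.7% of all Y RNA counts in gradient 12 and 44.8% in gradient 6_7, but 20.1% in 3D UC exomere. In such a share, less material of one kind and less RNA per particle cannot be told apart.

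**Figure D3:**
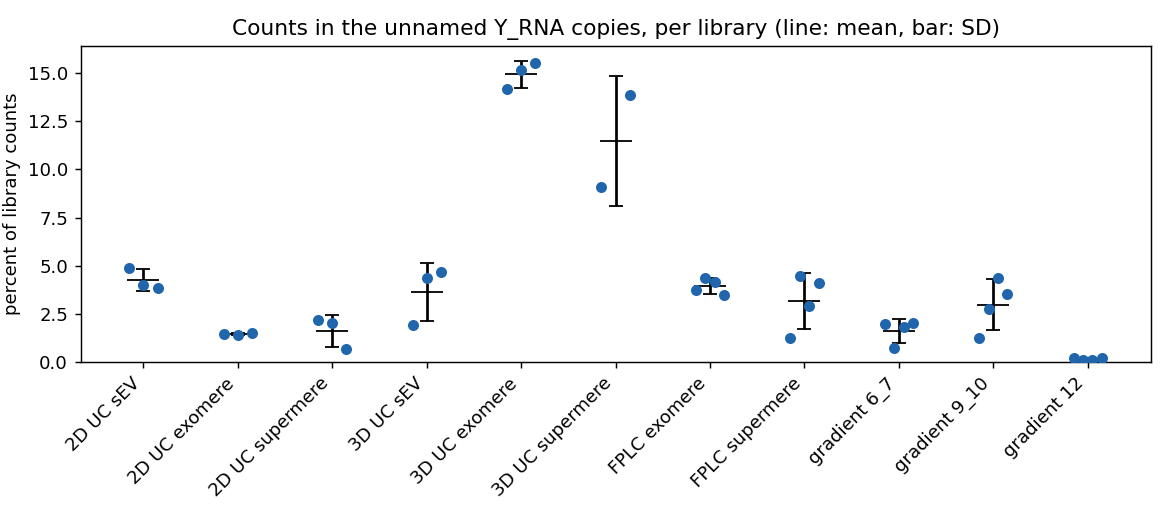
Counts in the 227 copies as a percentage of all counts of a library (y axis), by group, with each library as a point and the mean and SD as lines. The 3D UC exomere libraries lie between 14.2% and 15.5% and the gradient 12 libraries between 0.115% and 0.186%; the near-empty 3D UC supermere A is not drawn.

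The top copy set much of that share. ENSG00000201778 reached 127506, 143058 and 113117 CPM in 3D UC exomere A, B and C, and 79033 and 84775 CPM in 3D UC supermere B and C. It had 18055, 15483 and 16471 CPM in 2D UC sEV, 7213, 7698 and 8601 CPM in 2D UC exomere, and 1544, 1476 and 1056 CPM in 2D UC supermere. In 2D the 3 fractions did not overlap and fell from sEV to exomere to supermere, and in 3D the exomere and supermere libraries all lay above the 3 sEV libraries. Those 3D UC sEV libraries had 10062, 29463 and 31413 CPM. FPLC exomere ran from 20977 to 30694 CPM around a median of 25690, and FPLC supermere from 11201 to 37693 CPM, so these overlapped. In the gradient it ran from 2543 to 25500 CPM in 9_10, from 1268 to 4085 CPM in 6_7 and from 83.1 to 255 CPM in 12. The 12 libraries lay below all others.

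The copies split by sequence class across the groups. Copies with the RNY1 or RNY3 3′ window were highest in 2D UC sEV or gradient 6_7, which held the highest group mean for 116 of these 120 copies. The other RNY1-like copies, many of which carry the 5′ part of RNY1, were highest in 3D UC supermere for 47 of 65. That group mean uses libraries B and C only, and these differ widely, with sums over the 65 copies of 5815 and 25566 CPM. Library B lay below 3D UC exomere C (6888 CPM) and gradient 9_10 C (8578 CPM). RNY4 inner window copies were highest in 2D UC supermere for 10 of 16. Summed over the 62 RNY1 3′ window copies, the level was 19748 ± 3779 CPM in 2D UC sEV (SD, n = 3), 137 ± 46.4 in 2D UC exomere and 35.9 ± 22.6 in 2D UC supermere. Summed over the 16 RNY4 inner window copies it ran the other way, from 450 ± 31.6 to 3329 ± 642 and 9893 ± 6142 CPM (n = 3 each). The epithelial miRNA markers also fell along the same order in 2D, from 111888 to 9711 and 3634 CPM as summed group means, and their part in these results was not tested.

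**Figure D4:**
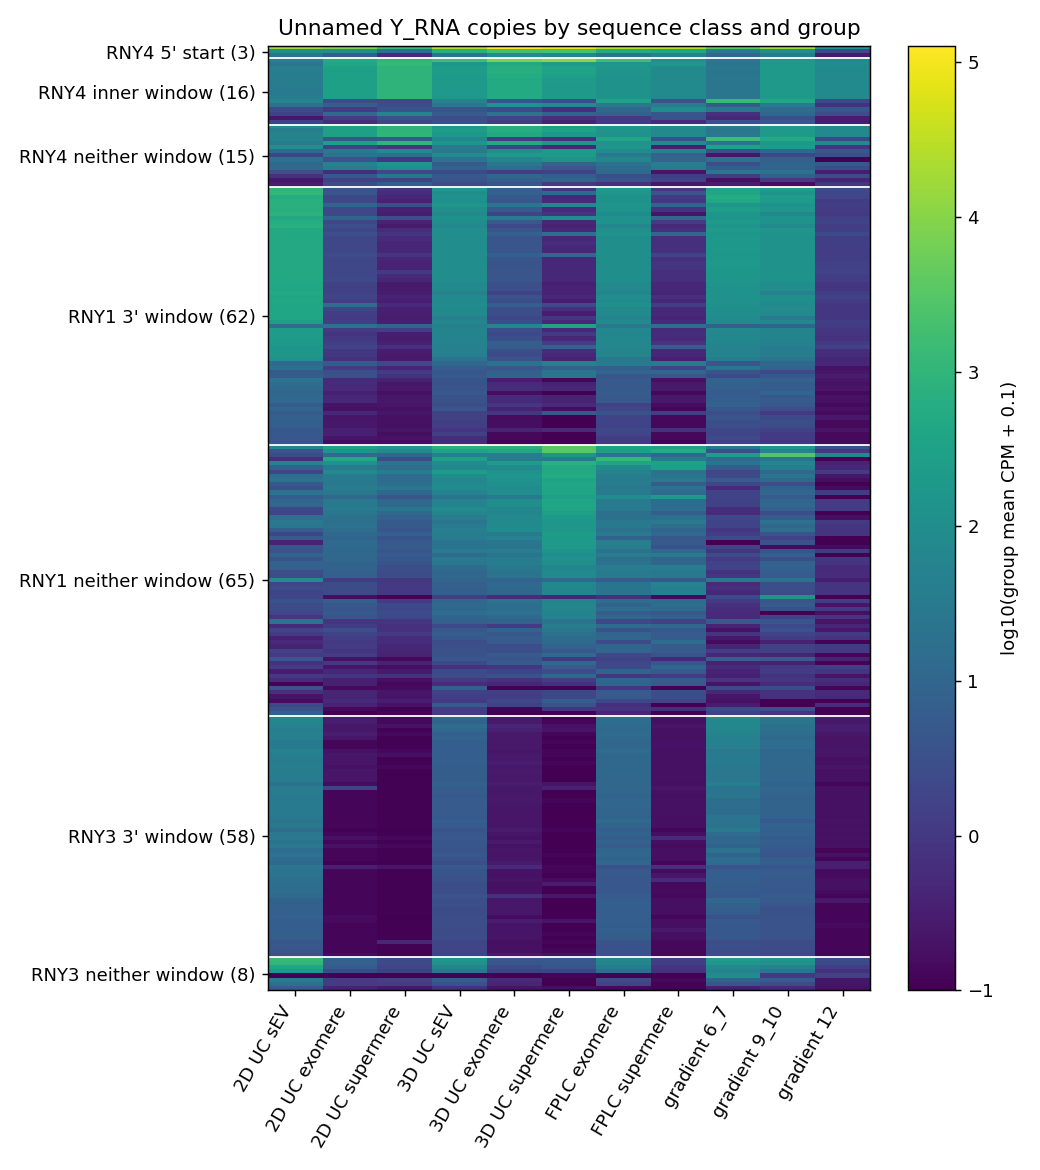
Group mean level of each of the 227 copies (rows, ordered by sequence class and then by mean level, with the number of copies in brackets) in the 11 groups (columns), as log10(CPM + 0.1). The 120 copies with a 3′ window are high in 2D UC sEV, 3D UC sEV, FPLC exomere and gradients 6_7 and 9_10, and low in the UC exomeres and supermeres, FPLC supermere and gradient 12.

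Differences were tested with edgeR's quasi-likelihood test over 7009 features, all 227 copies among them, with Benjamini-Hochberg adjustment and a threshold of 0.05. Log2 fold changes use TMM scaling, with factors from 0.0553 to 13.6, so they can differ from a ratio of CPM. Of the 227 copies, 15 were called in none of the 12 comparisons. Neither that number nor the numbers at an unadjusted p below 0.05 given below were counted over all features.

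In 2D, exomeres were compared with sEV. Of the copies, 136 fell in exomeres and 0 rose, against 7.95% of all features that fell and 0.628% that rose. The median log2 difference was -6.30 over the copies and 0.10 over all features. All 58 RNY3 3′ window copies and 57 of the 62 RNY1 3′ window copies fell, with class medians of -9.16 and -9.11. With library totals in place of TMM, 106 copies fell and 15 rose, 9 of the latter with the RNY4 inner window. With RLE size factors 92 fell and 16 rose, and with DESeq2 122 fell and 4 rose. The scaling also moved the medians: to -5.21 over the copies and 1.78 over all features with library totals, and to -4.60 and 2.64 with RLE size factors. ENSG00000202078, an RNY1-like copy in an intron of COPA at chr1:160326104-160326216, had 1038, 803 and 614 CPM in the sEV libraries. It had 3.77, 1.41 and 1.00 CPM in the exomere libraries, a log2 difference of -10.42 ± 1.36 (SE, adjusted p = 2.5e-11). ENSG00000201800 had 924, 681 and 673 CPM in sEV and 2.71, 1.91 and 1.75 CPM in exomeres, a log2 difference of -10.06 ± 1.31 (adjusted p = 2.5e-11). Sample ranges did not overlap for either copy. ENSG00000201778 fell by 2.52 ± 0.77 on the log2 scale (adjusted p = 0.016), a call that was lost with library totals, where the difference was -1.09 (adjusted p = 0.40). It was also lost with RLE size factors (-0.30, adjusted p = 0.67), with no filter on low counts (-2.28, adjusted p = 0.081), and without exomere A or B or sEV A or B, where the difference lay between -1.85 and -2.41 (adjusted p between 0.058 and 0.21).

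Supermeres against sEV in 2D gave both directions: 15 copies rose and 134 fell, against 1.93% and 8.45% of all features. The median was -6.39 over the copies and -0.01 over all features. RLE size factors gave 28 higher and 93 lower. All 58 RNY3 3′ window copies and 56 of 62 RNY1 3′ window copies fell, and 10 of the 16 RNY4 inner window copies rose. ENSG00000202008, an RNY4 inner window copy in an intron of STRADB, had 23.6, 26.2 and 25.9 CPM in sEV and 1768, 1610 and 307 CPM in supermeres. It rose by 4.42 ± 0.99 on the log2 scale (adjusted p = 0.00019), and library C lay far below A and B but above all sEV libraries. ENSG00000201339, an RNY4-like copy opposite PROS1, rose by 3.69 ± 0.97 (adjusted p = 0.0023). ENSG00000222224 rose from 1.39 ± 0.324 to 55.9 ± 40.0 CPM (SD, n = 3), a log2 difference of 4.02 ± 1.22 (adjusted p = 0.011). That call was lost without any 1 of the sEV libraries (adjusted p between 0.075 and 0.11). ENSG00000199938, opposite BTBD9 and with the RNY1 3′ window, fell from 741 ± 242 to 0.181 ± 0.0465 CPM (SD, n = 3), a log2 difference of -12.34 ± 1.48 (adjusted p = 7.2e-14). ENSG00000201778 fell by 4.16 ± 0.83 (adjusted p = 1.6e-05), a call lost with RLE size factors at -1.62 (adjusted p = 0.10).

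Between supermeres and exomeres in 2D, edgeR called 0 copies, with 0.0% of all features higher and 0.0856% lower. At an unadjusted p below 0.05 there were 24 copies. DESeq2 called 3 higher and 1 lower, and library totals 0 higher and 1 lower. The library 2D UC supermere C stood apart: without it, 8 copies fell. ENSG00000202008 shows that spread, at 512, 520 and 179 CPM in the exomere libraries beside its supermere values above. For the 16 RNY4 inner window copies the median log2 difference was 2.21, which did not pass the test for any of them.

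In 3D, exomeres against sEV gave 1 copy higher and 90 lower, against 0.271% and 9.8% of all features, with medians of -3.20 over the copies and -0.43 over all features. RLE size factors gave 1 and 58, and without 3D UC exomere C the counts were 1 and 57. The RNY1 3′ window accounted for 39 of the lower calls and the RNY3 3′ window for 42. The copy that rose was ENSG00000201778, by 2.64 ± 0.78 on the log2 scale (adjusted p = 0.011). That call was lost without 3D UC exomere B (2.26, adjusted p = 0.092) and without 3D UC sEV A (2.26, adjusted p = 0.12). ENSG00000200615, which carries the 3′ part of RNY4, fell from 95.7, 58.2 and 63.7 CPM to 2.10, 0.769 and 0.681 CPM, a log2 difference of -5.93 ± 1.08 (adjusted p = 1.1e-05). ENSG00000201800, as an RNY1 counterpart, had 152, 81.8 and 111 CPM in sEV and 4.23, 6.08 and 3.68 CPM in exomeres. ENSG00000199801, with the RNY1 3′ window in LINC01497, fell by 4.99 ± 1.11 (adjusted p = 0.00035). The exomere and sEV libraries of these 3 copies did not overlap.

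Supermeres against sEV in 3D gave 21 copies higher and 70 lower, against 0.442% and 7.33% of all features. The median was -3.80 over the copies and -3.90 over all features. This split depended on the scaling: library totals gave 2 higher and 58 lower, RLE size factors 0 and 74, and DESeq2 38 and 39. With DESeq2 both medians turned positive, to 2.27 over the copies and 5.29 over all features. It also rested on single libraries: 0 rose and 25 fell without 3D UC supermere C, 19 rose and 27 fell without 3D UC supermere B, and 2 rose and 46 fell without 3D UC sEV A. Of the 21 higher copies, 18 were other RNY1-like copies without the 3′ window. ENSG00000201343, one of them in an intron of TBL1XR1, had 19.6, 24.0 and 21.9 CPM in sEV and 263 and 284 CPM in supermere B and C. It rose by 4.07 ± 1.04 on the log2 scale (adjusted p = 0.0028), and by 2.67 with RLE size factors (adjusted p = 0.18) and 3.29 without 3D UC supermere C (adjusted p = 0.11), neither of which passed the test. ENSG00000207404, an RNY1 3′ window copy in an intron of FER, fell from 84.7 ± 27.0 CPM (SD, n = 3) to 0.193 ± 0.205 CPM (n = 2), a log2 difference of -8.52 ± 1.70 (adjusted p = 4.9e-05).

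Supermeres against exomeres in 3D gave 1 copy higher and 0 lower, against 0.128% and 0.243% of all features, with 59 copies at an unadjusted p below 0.05. The direction depended on the setting: DESeq2 called 79 higher, RLE size factors 3 lower and library totals 0. The copies' median was -1.41, and 3.37 with DESeq2, and that of all features -1.07 and 4.21. Of all features, DESeq2 called 359 of 4006 higher and 28 lower, and RLE size factors 0 of 7009 higher and 90 lower. The single call was lost without 3D UC exomere A, 3D UC exomere B or 3D UC supermere C (0 called each), and 3 were called without 3D UC exomere C. ENSG00000199200 was uneven within both groups: it had 868, 462 and 21350 CPM in the exomere libraries and 406 and 20181 CPM in the supermere libraries. The C libraries were high in both.

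**Figure D5:**
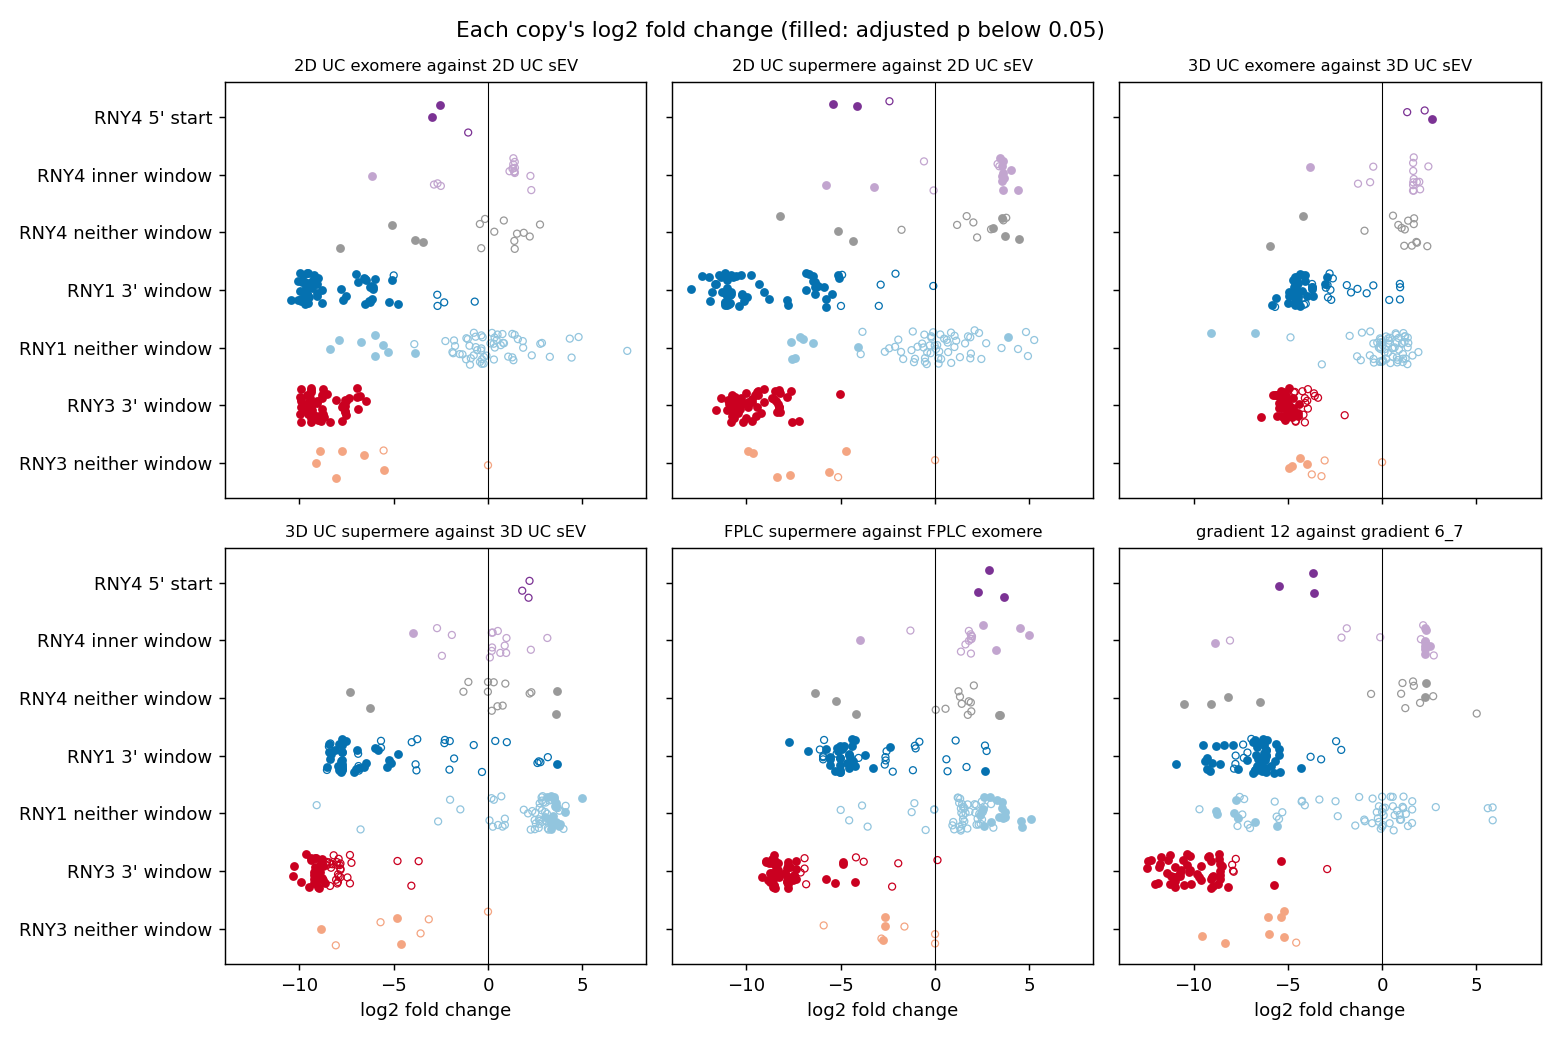
Log2 fold change (x axis) of each of the 227 copies in 6 comparisons, in rows by sequence class and spread at random within a row; filled points passed an adjusted p of 0.05. Copies with the RNY1 or RNY3 3′ window lie mostly left of 0 in all 6 panels. RNY4 inner window copies have medians right of 0 in all 6, from 0.23 in 3D UC supermere to 3.55 in 2D UC supermere. These fold changes use TMM scaling, and CPM ran the other way in the FPLC comparison. There the class's median level was 77.8 CPM in supermere and 129.5 CPM in exomere. Of the 16 copies, 0 had every FPLC supermere library above every FPLC exomere library, and 1 had every one below.

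The 3′ window classes also separated fractions prepared in other ways. In the gradient, fraction 12 against 6_7 gave 10 copies higher and 126 lower, against 2.91% and 7.02% of all features, with medians of -6.38 over the copies and 0.00 over all features. Library totals gave 1 higher and 129 lower, and 3 rose and 124 fell without the near-empty 3D UC supermere A. All 62 RNY1 and all 58 RNY3 3′ window copies had every 12 library below every 6_7 library on CPM, against 9.44% of all features, and 51 and 53 of them fell by the test. ENSG00000200314 had 59.8, 26.8, 114 and 87.7 CPM in 6_7 A to D and 0.488, 0, 0.0562 and 0.201 CPM in 12 A to D, with no overlap. It and ENSG00000200521, both with the RNY3 3′ window, fell with log2 differences of -12.49 ± 2.00 (adjusted p = 3.1e-08) and -12.43 ± 2.01 (adjusted p = 4.0e-08), fitted sizes that depend on counts near 0. In the other direction, ENSG00000202008 rose by 2.53 ± 0.80 (adjusted p = 0.019), a call lost with library totals at 1.93 (adjusted p = 0.12). Under library totals ENSG00000201339 and ENSG00000222529 also lost their calls, at 1.75 each (adjusted p = 0.20 and 0.16), from 2.31 each (adjusted p = 0.042 and 0.039). Without single 6_7 libraries their adjusted p was between 0.063 and 0.15, and that of ENSG00000202008 was 0.092 without 6_7 C and 0.059 without 6_7 D. ENSG00000201778 fell by 3.63 ± 0.70 (adjusted p = 7.9e-06).

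FPLC supermere against FPLC exomere gave 27 copies higher and 94 lower, against 2.34% and 6.69% of all features, with medians of -2.64 and -1.80. The upward calls were lost under another scaling: library totals gave 2 higher and 129 lower, and RLE size factors 0 and 129. DESeq2 gave 51 and 75. Of all 7009 features, library totals called 19 higher and 4027 lower, and RLE size factors 10 and 3755. The RNY3 3′ window copies fell in 49 of 58 cases and the RNY1 3′ window copies in 38 of 62. ENSG00000239180, an RNY4-like copy opposite SMC5, had 251, 212, 70.0 and 115 CPM in the exomere libraries A to D and 0.0540, 0.584, 0.304 and 0.0676 CPM in the supermere libraries. It fell by 6.34 ± 1.06 (adjusted p = 6.2e-07). ENSG00000202078 fell by 6.73 ± 1.13 (adjusted p = 6.3e-07), from 37.3, 243, 38.2 and 50.0 CPM to at most 0.164 CPM. Neither copy's libraries overlapped. ENSG00000201778 rose by 2.85 ± 0.68 with TMM (adjusted p = 0.0012) although its mean CPM was 27053 against 25763, and by 0.07 with library totals (adjusted p = 0.99).

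Exomeres isolated by FPLC and by UC, both from 3D medium, did not carry the copies alike. In FPLC exomere 76 copies were higher and 29 lower, against 6.23% and 3.17% of all features, with medians of 2.32 over the copies and 0.67 over all features. Library totals gave 99 higher and 6 lower, and with no filter on low counts the lower calls were more, at 6 higher and 17 lower. Of all features, library totals called 1087 of 7009 higher and 86 lower, and no filter gave 84 of 22136 higher and 73 lower. The call count rested on several libraries: without 3D UC exomere B there were 10 higher and 18 lower, without 3D UC exomere C 9 and 21, without 3D UC exomere A 24 and 24, and without FPLC exomere B 19 and 21. The higher copies were mainly those with the RNY3 (37 of 58) and RNY1 (36 of 62) 3′ windows, and 10 of 16 RNY4 inner window copies were lower. ENSG00000200615 had 667, 413, 156 and 325 CPM in FPLC exomere A to D against at most 2.10 CPM in UC exomere, a log2 difference of 7.16 ± 1.13 (adjusted p = 3.0e-07). ENSG00000201279, opposite ART1, holds the RNY4 inner window, although its longest match is RNY4 bases 67 to 93. It rose by 5.31 ± 1.03 (adjusted p = 5.4e-05), the 1 inner window copy of the 16 that was called higher. ENSG00000239180 rose by 5.21 ± 1.09 (adjusted p = 0.00024). These 3 copies had their highest means in gradient 6_7, at 1593, 1302 and 343 CPM. ENSG00000201778 fell by 3.53 ± 0.72 (adjusted p = 0.00018). The summed epithelial miRNAs moved in the same direction as the 3′ window copies here, from 2663 CPM in UC exomere to 46267 CPM in FPLC exomere (lowest 15596 and highest 114181), and their part was not tested.

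Culture was compared within each UC fraction. Medium pools differ between 2D and 3D, so culture and pool cannot be told apart. In sEV, 30 copies were higher in 3D and 0 lower, against 2.91% and 0.0428% of all features, with medians of -0.44 and -0.77. RLE size factors left 2 higher and library totals 4 higher and 1 lower, and the count was 3 or 4 without any 1 of the 2D UC sEV libraries, 8 without 3D UC sEV B and 7 without 3D UC sEV C. Of the 30, 16 were other RNY1-like copies and 9 had the RNY4 inner window. ENSG00000252655 had 2.11, 3.02 and 3.80 CPM in 2D and 10.0, 139 and 125 CPM in 3D, a log2 difference of 5.85 ± 1.42 (adjusted p = 0.0063). With RLE size factors its adjusted p was 0.19, and without any 1 of the 2D libraries the adjusted p was between 0.051 and 0.058. ENSG00000201635 had 1.73, 2.00 and 1.69 CPM in 2D and 4.23, 78.6 and 95.9 CPM in 3D (log2 difference 5.88 ± 1.66, adjusted p = 0.036), and 4.52 with RLE size factors (adjusted p = 0.24). Without any 1 of the 2D libraries its adjusted p was between 0.14 and 0.17. The 3D UC sEV A library was the lowest of its group for both, yet above all 2D libraries. On CPM, 57 of 62 RNY1 3′ window copies had every 3D library below every 2D library, against 34.3% of all features, with 0 called by edgeR and 7 lower by DESeq2.

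In exomeres, 112 copies were higher in 3D and 0 lower, against 5.11% and 3.48% of all features. The median was 3.50 over the copies and -1.26 over all features. This count depended on the scaling and the filter: 11 higher with library totals, 3 higher and 2 lower with RLE size factors, and 8 higher with no filter. Of all 7009 features, library totals called 80 higher and 3631 lower, and RLE size factors 30 and 4373. The copies' count was 28 without 2D UC exomere A or without 2D UC exomere B. The copies' median fell to 1.15 with library totals and 0.13 with RLE size factors, and that of all features to -4.02 and -4.88. ENSG00000201778 rose by 6.57 ± 0.93 (adjusted p = 3.5e-09), with all 3D libraries above all 2D libraries. ENSG00000201938, which holds both RNY4 windows, rose from 7.14 ± 3.02 to 126 ± 7.79 CPM (SD, n = 3), a log2 difference of 6.47 ± 1.18 (adjusted p = 1.3e-05). ENSG00000199515, which holds the first 18 bases of RNY4, rose by 6.06 ± 1.17 (adjusted p = 4.5e-05), and by 2.69 with RLE size factors (adjusted p = 0.073).

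In supermeres, 71 copies were higher in 3D and 0 lower, against 1.91% and 1.28% of all features, with medians of 1.92 and -4.69. Library totals gave 58 higher and 3 lower, RLE size factors 8 higher and 43 lower, and DESeq2 144 higher. The direction of most calls thus turned with RLE size factors, which called 16 of all 7009 features higher and 5708 lower. With library totals all features gave 90 higher and 1038 lower. The copies' median was 0.03 with library totals, 0.00 with RLE size factors and 5.17 with DESeq2, and that of all features -5.84, -8.29 and 5.93. Without 3D UC supermere C there were 24 higher. Of the 71, 47 were other RNY1-like copies. ENSG00000201778 rose by 7.39 ± 0.97 (adjusted p = 3.4e-11). ENSG00000201405, in an exon of ZNF436-AS1 and with the first 18 bases of RNY4, had 8.05, 4.79 and 33.3 CPM in 2D and 438 and 3843 CPM in 3D B and C, a log2 difference of 8.16 ± 1.18 (adjusted p = 1.5e-08). ENSG00000283691, nearest to RNY4 at 91.7% identity, rose by 9.81 ± 1.40 (adjusted p = 3.2e-09), from 0.805 ± 0.267 CPM to 8.74 and 269 CPM.

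The difference between fractions also differed between cultures for some copies, tested as an interaction. For exomeres against sEV, 47 of the 227 copies had a higher log2 difference in 3D than in 2D and 0 a lower one, against 1.17% and 0.642% of all features. Library totals gave 1 and 0, and RLE size factors 1 and 4. Of all features, library totals called 7 higher and 65 lower, and RLE size factors 7 and 420. Of the 47, 40 were among the 62 RNY1 3′ window copies, of which 0 were called with library totals or RLE size factors, where 40 and 4 had an unadjusted p below 0.05. For ENSG00000201778 the interaction was 5.16 ± 1.10 (adjusted p = 0.0015), 3.52 with library totals (adjusted p = 0.018) and 3.00 with RLE size factors (adjusted p = 0.040). RNY4, with nearly equal counts in most groups, had 5.33 ± 1.10 (adjusted p = 0.00093), 3.70 with library totals (adjusted p = 0.011) and 3.17 with RLE size factors (adjusted p = 0.032). The result is thus not particular to the unnamed copy. For supermeres against sEV, 25 copies had a higher difference in 3D and 0 a lower one, against 0.528% and 1.13% of all features. RLE size factors gave 5 and 22 and library totals 12 and 1. Of all features, RLE size factors called 7 higher and 2200 lower, and library totals 20 and 84. For ENSG00000201778 this interaction was 5.98 ± 1.12 (adjusted p = 3.7e-05), and 2.33 with RLE size factors (adjusted p = 0.044). For RNY4 it was 6.15 ± 1.12 (adjusted p = 2.2e-05), and 2.50 with RLE size factors (adjusted p = 0.036).

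Single libraries stood out for several abundant copies. ENSG00000199245, between genes at chr12:88430442-88430550 and matching RNY1 bases 4 to 36, had 74.0, 87.4 and 817 CPM in 2D UC exomere A to C and 8.42, 25.4 and 518 CPM in 2D UC supermere A to C. In 3D it had 144, 1195 and 1180 CPM in sEV A to C, 352, 390 and 1826 CPM in exomere A to C, and 1112 and 5933 CPM in supermere B and C. ENSG00000200052, at chr3:165122713-165122823 and matching RNY1 bases 11 to 41, had 5.31, 3.84 and 434 CPM in 2D UC exomere and 34.3, 39.3 and 1338 CPM in 3D UC exomere. The C library was the highest for both copies in each of the 2D and 3D UC exomere and supermere groups. The labels name no shared pool for these letters.

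One of the 10 copies with the highest mean over groups was highest in gradient 9_10. That group largely placed the copy among the 10, so its high level there is a description only. Its mean was 3043 CPM in 9_10 and 329 CPM over the 11 groups, with a total of 7855 counts. ENSG00000199584, matching the middle of RNY1, had 1839, 2137, 7490 and 706 CPM in 9_10 A to D, 492, 158, 132 and 109 CPM in 6_7 and 64.4, 44.4, 47.7 and 133 CPM in 12. It was at most 238 CPM in all other libraries. The 9_10 libraries did not overlap those of any other group for this copy, while the median of the 65 other RNY1-like copies in 9_10 was 3.35 CPM. The 3 9_10 libraries B, C and D had 81079 to 185733 counts, the lowest totals apart from the near-empty library.

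Among the RNY3-like copies, ENSG00000200291, in an intron of KLHL13, was named after its values were seen. It does not hold the 3′ window. Its mean was 1322 CPM in 2D UC sEV, 7.65 in 2D UC exomere and 2.16 in 2D UC supermere, and 246 CPM in gradient 6_7. RNY3 itself had 1417 ± 171 CPM in 2D UC sEV, 14.0 ± 6.53 in 2D UC exomere and 8.10 ± 5.46 in 2D UC supermere (SD, n = 3 each). Of the RNY3-like copies, 44 of the 58 with the 3′ window and 7 of the 8 others had their highest mean in 2D UC sEV.

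The related lists in the same fit give the setting. In 2D, 2 of 3 named Y RNAs and 10 of 29 tested named pseudogenes fell in exomeres against sEV and 0 rose, where 7.95% of all features fell. Other settings gave pseudogenes in both directions: 7 rose and 8 fell with RLE size factors, 6 rose and 8 fell with library totals, and 1 rose and 9 fell with DESeq2. All 4 tested vault RNAs, components of the vault particle, fell in the same comparison and in supermeres. In gradient 12 against 6_7 the directions parted: 3 of 3 named Y RNAs fell, 11 pseudogenes fell and 4 rose, and 3 vault RNAs rose, against 7.02% of all features lower and 2.91% higher. With library totals 12 pseudogenes fell and 0 rose. In 3D exomeres against 2D exomeres, 2 named Y RNAs, 20 pseudogenes and 4 vault RNAs rose and 0 fell, against 5.11% and 3.48% of all features. With library totals 6 pseudogenes rose. With RLE size factors the named Y RNAs had 1 higher and 1 lower, and 4 pseudogenes and 3 vault RNAs were higher.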

How the data were processed

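Small RNA libraries were grouped by the sample titles. The authors deposited 1 table of estimated counts per feature, not whole numbers throughout. Per the submitters' processing notes, reads were handled with cutadapt 4.5, FastQC 0.12.1 and Bowtie 1.3.1 on GRCh38.p13; the counting tool, its annotation and its treatment of reads that match several copies are not given in the sources used here. Library totals were 81079 to 16991360 counts, with 1 library at 46.

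Counts were rounded and fitted with edgeR 4.0.16 (R 4.3.3) quasi-likelihood, with 11 group means over 38 libraries, TMM scaling and a minimum count of 10 in edgeR's filter; 7009 features were tested and p-values adjusted over all of them at 0.05. SE is the log2 fold change divided by the square root of F. DESeq2 1.42.0, RLE size factors, library totals, no filter, a replicate block and leaving out single libraries were alternatives. Simulated counts were used to check the fit. Copies were aligned to RNY1, RNY3 and RNY4 from GENCODE release 29.

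Named copies are the 10 with the highest mean over groups and, per comparison, up to 3 in each direction with the largest called change, provided the groups' libraries did not overlap and the higher group averaged 50 CPM or more. ENSG00000200291 and the threshold copies fall outside that rule. Members and lists were chosen with earlier results of these data known. RNY5 was looked for and not matched, and is not analysed here. Some sequences, and results for 1 copy, are not reported here.

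Library letters were checked for pairing: only 2D UC supermere and 2D UC exomere had every same-letter correlation above 0.1 (0.142 to 0.472), and the blocked fit called 0 copies there, as without the block. Where the letters come from is not given.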

Additional observations from a re-analysis of the deposited data

Results flagged for a closer look

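In 5 of 55 groups of values tested, 1 library stood apart from the others, where chance flags about 1 in 20 groups. All 5 flags are in FPLC exomere or gradient 6_7. The uneven C libraries of UC exomeres and supermeres given above are not among them, so a group without a flag was not shown to be even. FPLC exomere A was high for 3 RNY4-like or RNY1-like copies. ENSG00000199200 had 6441 CPM there and 92.8 to 314 CPM in the other FPLC exomere libraries. ENSG00000199245 had 912 CPM against 117 to 231, and ENSG00000200052 had 847 CPM against 56.4 to 182. In gradient 6_7 A, ENSG00000199584 had 492 CPM against 109 to 158 CPM in the other 6_7 libraries. The copies' share of gradient 6_7 B was 0.697%, against 1.80% to 2.00% in the other 6_7 libraries.

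The difference between fractions differed between cultures for ENSG00000201778, by edgeR's interaction term: 5.16 on the log2 scale for exomeres against sEV (adjusted p = 0.0015) and 5.98 for supermeres against sEV (adjusted p = 3.7e-05). RNY4, whose counts were nearly equal to the copy's in most groups, had 5.33 (adjusted p = 0.00093) and 6.15 (adjusted p = 2.2e-05) by the same test. ENSG00000201405 had an interaction of 4.62 for supermeres against sEV (adjusted p = 0.025), which was 4.43 with library totals (adjusted p = 0.046) and 2.37 with RLE size factors (adjusted p = 0.15).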

How the results depend on the processing

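The balance of higher and lower calls turned in 3 of the 12 comparisons, and with RLE size factors in both tests of the difference between cultures (from 47 higher and 0 lower to 1 and 4 for exomeres, and from 25 and 0 to 5 and 22 for supermeres). With RLE size factors, 3D against 2D supermere went from 71 higher and 0 lower to 8 and 43 (51 in all), and 3D supermere against exomere from 1 and 0 to 0 and 3. All features then gave 16 higher and 5708 lower in the former comparison, and 0 and 90 in the latter. FPLC against UC exomere went from 76 higher and 29 lower to 6 and 17 with no filter, 10 and 18 without 3D UC exomere B (28 in all), 9 and 21 without 3D UC exomere C (30) and 19 and 21 without FPLC exomere B (40). With no filter, all 22136 features gave 84 higher and 73 lower in that comparison. The copies' median changed sign with DESeq2 in 3D supermere against sEV (-3.80 to 2.27), 3D supermere against exomere (-1.41 to 3.37) and 2D supermere against exomere (-0.34 to 0.06, and 0.33 without 2D UC exomere C). In both of these 3D comparisons the median of all features changed sign too, from -3.90 to 5.29 and from -1.07 to 4.21. No named copy and comparison pair changed direction under the settings run. Numbers of called copies (both directions together) moved by over 1.5 times as follows. With RLE size factors they were 59 in 3D exomere against sEV, 3 in 3D supermere against exomere, 2 in 3D against 2D sEV and 5 in 3D against 2D exomere. With library totals they were 1 in 2D supermere against exomere, 60 in 3D supermere against sEV, 0 in 3D supermere against exomere, 5 in 3D against 2D sEV and 11 in 3D against 2D exomere. With no filter they were 48, 40 and 0 in the 3D exomere against sEV, supermere against sEV and supermere against exomere comparisons, 11 and 8 in 3D against 2D sEV and exomere, 23 in FPLC against UC exomere and 76 in FPLC supermere against exomere. With DESeq2 they were 4 in 2D supermere against exomere, 79 in 3D supermere against exomere, 54 in 3D against 2D sEV and 144 in 3D against 2D supermere. With the replicate block, the count in 3D supermere against exomere was 0, and the other counts stayed within 1.5 times, although the 21 higher copies in 3D supermere against sEV became 3. Same-letter correlations ran from -0.0032 to 0.143 in 3D supermere against exomere and from -0.0033 to 0.0626 in 3D supermere against sEV. The near-empty library is among those pairs, so they cannot decide whether the letters pair these samples. The cause of the changes between settings was not tested.

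Leaving out 1 library at a time gave 106 to 138 called copies in 2D exomere against sEV, 127 to 171 in 2D supermere against sEV, 0 to 8 in 2D supermere against exomere, 58 to 82 in 3D exomere against sEV, 25 to 85 in 3D supermere against sEV and 0 to 3 in 3D supermere against exomere. It gave 3 to 28, 28 to 111 and 24 to 79 in 3D against 2D sEV, exomere and supermere, 28 to 121 in FPLC against UC exomere, 87 to 119 in FPLC supermere against exomere and 113 to 127 in gradient 12 against 6_7.

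As a share of all Y RNA counts in place of the library, the copies held 32.2%, 15.6% and 34.8% in 2D sEV, exomere and supermere, 17.3% and 20.1% in 3D sEV and exomere, 18.8% and 13.8% in FPLC exomere and supermere, and 44.8%, 29.5% and 51.7% in gradient 6_7, 9_10 and 12. Of 48 named copy and comparison pairs, 12 lost their call with RLE size factors, 10 with library totals, 5 with no filter and 2 with the block. The near-empty library leaves 3D UC supermere with 2 usable libraries for means, although it stayed in the fit. Without it, the copies' median log2 difference for 3D supermere was -3.78 against 3D sEV, -1.37 against 3D exomere and 1.85 against 2D supermere.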
